A study of Mus musculus with 6 samples.

Results

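Haemoglobin and erythroid genes were examined in the ventricles of mouse hearts 4 days after myocardial infarction (MI). The genes were chosen by symbol as a measure of blood in the tissue. The rule uses none of their values, though earlier results of these data were known when it was set. The genes are the alpha globins Hba-a1 and Hba-a2, the beta globins Hbb-bs and Hbb-bt, the haem synthesis enzyme Alas2 and the anion exchanger Slc4a1. All 6 had a row among the 26012 genes of the deposited table and a mean of at least 1, the minimum for testing, which 21126 genes passed. MI was made in male C57BL/6 mice, 8 weeks of age, by ligating the left anterior descending coronary artery, and every mouse received mimic, 10 μg per heart, injected into the heart. A miRNA mimic is a synthetic RNA that acts in the cell as a mature miRNA. In 3 hearts the mimics were miR-19a and miR-19b (miR-19a/19b mimic), and in the other 3 they were control mimic. Both groups carried the infarct and the injection, and hearts without either were not analysed here. The question was whether transcripts of red blood cells differed between miR-19a/19b mimic and control mimic hearts.

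Haemoglobin of the adult mouse is a tetramer of alpha and beta chains, each of which holds a haem group that binds oxygen. Mature red cells of mammals have no nucleus, and the globin mRNA they carry was made earlier, in the erythroblasts of the bone marrow and spleen. Globin mRNA in a piece of heart therefore usually marks the blood within it, since heart muscle uses another globin, myoglobin, to hold oxygen. Alas2 makes the first precursor of haem in erythroid cells, and Slc4a1 (band 3) exchanges chloride for bicarbonate across the red cell membrane and anchors the membrane skeleton.

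The globin genes lie in 2 clusters (coordinates as in the deposited table, GRCm38). Hba-a1 (ENSMUSG00000069919) is at chr11:32283511-32284465 and Hba-a2 (ENSMUSG00000069917) at chr11:32296489-32297298, both on the plus strand with 12023 bases between them. Hbb-bt (ENSMUSG00000073940) is at chr7:103812524-103813996 and Hbb-bs (ENSMUSG00000052305) at chr7:103826534-103828096, both on the minus strand with 12537 bases between them. Alas2 (ENSMUSG00000025270) is at chrX:150547375-150570638 on the plus strand, and Slc4a1 (ENSMUSG00000006574) is at chr11:102348824-102366203 on the minus strand. Each pair of globins is a pair of near-identical copies, so the coding bases around their differences are shown, 5′ to 3′ on the coding strand, with the differing base in capitals. All are in exon 3 of the gene's first listed coding transcript in GENCODE M21, from which they were read.
Hba-a1, chr11:32284313-32284373: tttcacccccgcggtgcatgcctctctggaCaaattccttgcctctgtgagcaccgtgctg
Hba-a2, chr11:32297130-32297190: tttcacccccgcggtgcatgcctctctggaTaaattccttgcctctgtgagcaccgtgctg
Hbb-bs, chr7:103826668-103826722: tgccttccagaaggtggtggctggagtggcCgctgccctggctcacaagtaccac
Hbb-bt, chr7:103812659-103812713: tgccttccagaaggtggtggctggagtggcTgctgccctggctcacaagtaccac

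Counted from the first base of the start codon, the 426 coding bases of Hba-a1 and Hba-a2 differed at 1 base, C381T, with the base of Hba-a1 first. The 441 coding bases of Hbb-bs and Hbb-bt differed at 1 base, C417T, with the base of Hbb-bs first. Both differences leave the encoded protein the same, so each pair gives 1 chain. Reads were 150 bases long and paired. Of the windows of that length in the Hba-a1 transcript, 48.4% (266 of 550) also occur, base for base, in Hba-a2, where the same 266 windows are 65.7% of 405. For Hbb-bs the share was 58.7% (281 of 479), and for Hbb-bt it was 50.7% (281 of 554). How reads that match both copies were counted is not given in the sources used here, so the split of reads within each pair is uncertain. The sum of a pair does not rest on that split, but it falls short of the full count if such reads were dropped. The globin sums, their shares of reads and the alpha to beta ratio below carry this limit.

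The 100 bases before the start of a gene in RefSeq (GRCm38.p6), read on the gene's strand, are shown for the globins with the lowest p-values below, for the beta twin of one and for Alas2. Capitals mark matches on either strand to CCAAT (the CCAAT box), CACCC (the CACCC box, bound by Krüppel-like factors), TATAA (the TATA core) and GATAA (the core of GATA factor sites). The RefSeq starts differ from those in the deposited table, and Slc4a1 is named only.
Hba-a2, chr11:32296392-32296491, plus strand: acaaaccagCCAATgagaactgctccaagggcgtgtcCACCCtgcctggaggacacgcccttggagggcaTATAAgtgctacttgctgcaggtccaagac
Hbb-bt, chr7:103813924-103814023, minus strand: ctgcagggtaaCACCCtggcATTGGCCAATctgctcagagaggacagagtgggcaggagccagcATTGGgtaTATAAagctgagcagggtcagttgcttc
Hbb-bs, chr7:103827929-103828028, minus strand: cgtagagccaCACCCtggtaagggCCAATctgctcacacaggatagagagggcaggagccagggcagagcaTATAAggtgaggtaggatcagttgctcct
Alas2, chrX:150547317-150547416, plus strand: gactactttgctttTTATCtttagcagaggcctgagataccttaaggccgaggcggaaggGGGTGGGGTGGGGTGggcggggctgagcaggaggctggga

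The alpha pair share a run of 97 of these 100 bases, and the longest run that Hbb-bs and Hbb-bt share is 14 bases. Each of the 4 globin windows held the CCAAT box, the CACCC box and the TATA core, with 3 matches to the CCAAT box in Hbb-bt and 1 in each other globin. Alas2 held 3 matches to the CACCC box and 1 to the GATA core, all of them on the other strand. Among all 32851 promoters of the RefSeq table, windows of the same length held the CCAAT box in 18.9%, the CACCC box in 27.2%, the TATA core in 10.2% and the GATA core in 8.55%.

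The mature miRNAs that the mimics stand for are shown with bases 2 to 8, the seed that pairs with target mRNAs, in capitals (RefSeq, the genes on chromosome 14). The sequences of the mimics themselves are not given in the sources used here.
miR-19a-3p: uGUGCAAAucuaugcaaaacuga
miR-19b-3p: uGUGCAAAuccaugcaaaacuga

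They share the seed. The letters TTTGCAC, which pair with it, are in 0 annotated transcripts of each of the 6 genes, from 1 transcript of Hbb-bt to 5 of Slc4a1. They are in at least 1 protein-coding transcript of 19.8% of genes with such transcripts (4337 of 21877).

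The depth was 19398196 to 23645308 reads on genes per heart, of which mitochondrial genes took 3.18% to 6.93%, the lowest in miR-19a/19b mimic replicate 3. That heart also stood apart in cardiomyocyte markers. The mean of 10 cardiomyocyte genes, centred on the 6 hearts, was -0.96 on the log2 scale there, between -0.29 and 0.16 in the control mimic hearts, whereas replicates 1 and 2 of miR-19a/19b mimic had 0.61 and 0.52. Values of the members and lists without this heart are given beside the results they move.

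All 6 genes had lower fitted values in miR-19a/19b mimic than in control mimic hearts, by 0.23 to 1.0 on the log2 scale, and 0 of them passed the test. Of all genes tested, 49.2% had lower fitted values. The 6 genes are not separate results, since each was lowest in miR-19a/19b mimic replicate 3. Hba-a2 and Hbb-bt, the less abundant member of each globin pair, were the only members whose groups did not overlap and whose unadjusted p-values were under 0.05. The abundant Hba-a1 and Hbb-bs differed by less than the spread between hearts. The test was limma on log2(normalized count + 1) with p-values adjusted by Benjamini-Hochberg over all genes tested, and it called 0% of the 21126 genes at an adjusted p-value under 0.05. By unadjusted p-value under 0.05, 2.63% of all genes were lower in miR-19a/19b mimic hearts and 1.39% higher (848 genes in all). Groups did not overlap for 5.3% of genes in the lower direction and 3.9% in the higher. In tissue, fewer red cells and less mRNA per red cell cannot be told apart.

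Hba-a1, the more abundant row of the alpha pair, had normalized counts of 1797, 1059.9 and 1739 in control mimic replicates 1, 2 and 3, against 1384, 1617 and 919.8 in replicates 1, 2 and 3 of miR-19a/19b mimic. The lowest heart was miR-19a/19b mimic replicate 3, control mimic replicate 2 came next, and the groups overlapped. The means were 1532 ± 409.8 and 1307 ± 355 (SD, n = 3 each), with a log2 fold change of -0.23 (SE 0.25, 95% interval -0.79 to 0.33).

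Hba-a2 had normalized counts of 118, 212 and 170.0 in the control mimic hearts and of 78.5, 102 and 64.8 in the miR-19a/19b mimic hearts. Each miR-19a/19b mimic heart was below each control mimic heart, and the highest, control mimic replicate 2, was the heart with the lowest Hba-a1 of its group. The means were 167 ± 46.8 and 81.8 ± 18.8 (SD, n = 3 each), with a log2 fold change of -1.0 (SE 0.25, 95% interval -1.56 to -0.44). The unadjusted p-value of limma was 0.00301 and the adjusted p-value 0.877, so Hba-a2 did not pass the test. The adjusted p-value was 0.0877 with DESeq2 and 0.938 with edgeR's quasi-likelihood test on the recovered reads.

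Hbb-bs, the more abundant row of the beta pair, had normalized counts of 1847, 1478 and 1826 in the control mimic hearts and of 1628, 1922 and 862.7 in the miR-19a/19b mimic hearts. The highest and the lowest of the 6 hearts were both miR-19a/19b mimic hearts, replicates 2 and 3, and differed 2.23-fold. The means were 1717 ± 208 and 1471 ± 547 (SD, n = 3 each), with a log2 fold change of -0.29 (SE 0.26, 95% interval -0.89 to 0.30).

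Hbb-bt had normalized counts of 246, 246 and 215 in the control mimic hearts and of 179, 193 and 99.4 in the miR-19a/19b mimic hearts. The control mimic hearts lay close together, with a coefficient of variation of 7.67% against 32.1% in the miR-19a/19b mimic hearts, and the groups did not overlap. The means were 236 ± 18.1 and 157 ± 50.3 (SD, n = 3 each), with a log2 fold change of -0.64 (SE 0.24, 95% interval -1.18 to -0.10). The unadjusted p-value of limma was 0.0250 and the adjusted p-value 1.0, so Hbb-bt did not pass the test either.

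**Figure D1:**
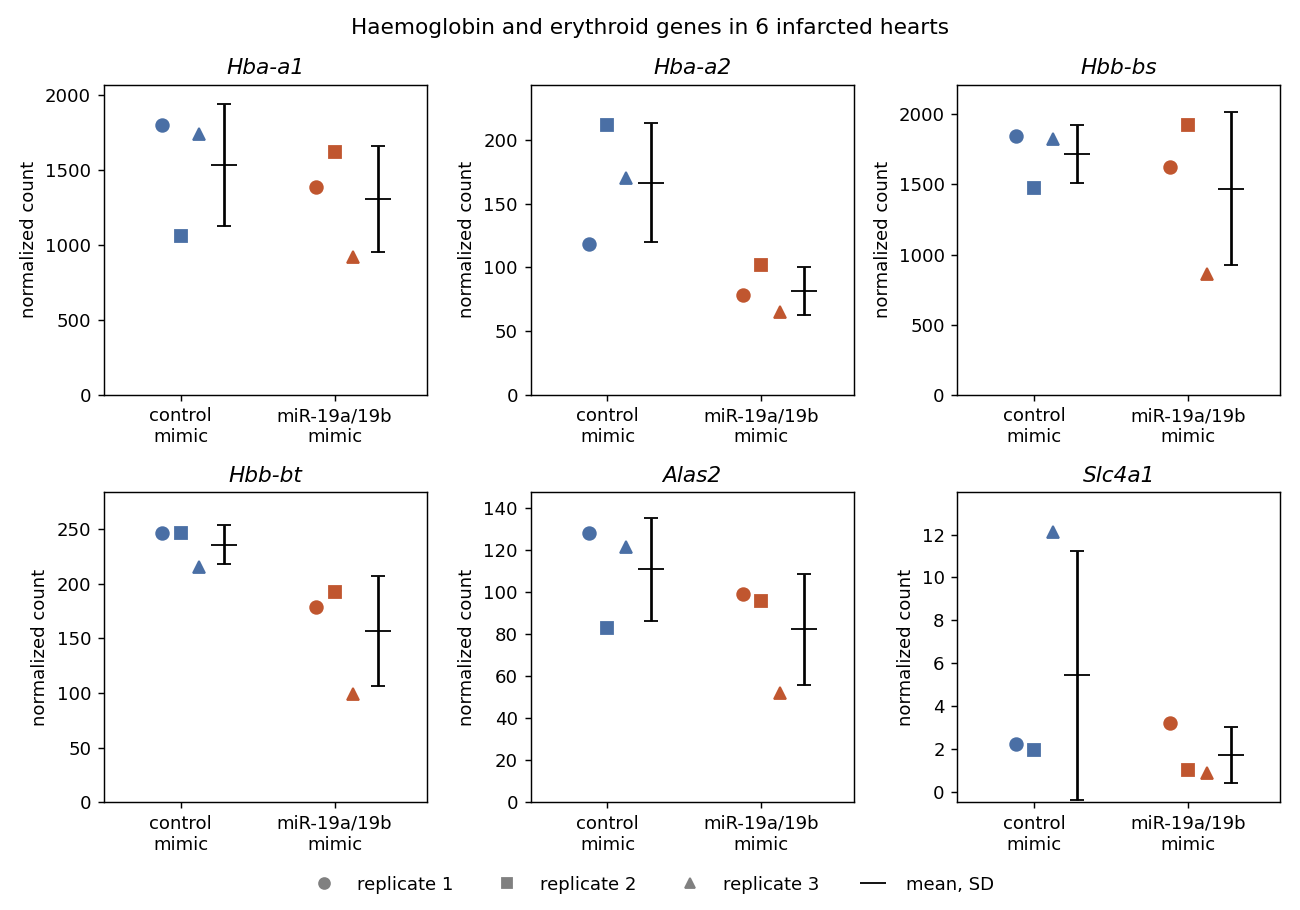
Normalized counts of the 6 genes (y axes, linear) in the 3 control mimic and 3 miR-19a/19b mimic hearts; each point is a heart, and the bar gives the mean and SD of the group. Triangles of the miR-19a/19b mimic group, replicate 3, are the lowest point in each of the 6 panels, and the groups do not overlap for Hba-a2 and Hbb-bt.

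Alas2, the erythroid form of the enzyme that starts haem synthesis, had normalized counts of 128, 83.0 and 121 in the control mimic hearts and of 99.0, 95.9 and 51.9 in the miR-19a/19b mimic hearts. The groups overlapped through control mimic replicate 2. The means were 111 ± 24.4 and 82.2 ± 26.4 (SD, n = 3 each), with a log2 fold change of -0.46 (SE 0.28, 95% interval -1.10 to 0.18). The gene is overlapped on the other strand by Apex2, at 158 to 192 normalized counts, and by Mir3620. The library kit does not mark strand, so reads from where these genes overlap cannot be told apart by strand.

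Slc4a1 was near the limit of detection. Its reads came to 2, 2 and 13 in the control mimic hearts and to 3, 1 and 1 in the miR-19a/19b mimic hearts, or between 0.864 and 12.1 normalized counts. Only control mimic replicate 3 was above 3 reads. The ratio of the summed reads of the groups, scaled by the size factors, was 0.289 (exact 95% interval 0.0833 to 0.815, counting error only), and without control mimic replicate 3 it was 0.789 (0.170 to 3.98). The log2 fold change was -0.99 (SE 0.69, 95% interval -2.55 to 0.58), an interval that spans both directions. It was -0.29 without that heart, so the difference rested on that heart.

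The 4 globin rows summed to 4009, 2995 and 3949.9 normalized counts in the control mimic hearts and to 3269, 3833 and 1947 in the miR-19a/19b mimic hearts. The group means were 3651 ± 569 and 3016 ± 968 (SD, n = 3 each), and the ranges overlapped. The sum of miR-19a/19b mimic replicate 2 was 1.97 times that of replicate 3 of the same group. As a share of all reads on genes, globin took 0.0187%, 0.0145% and 0.0179% in control mimic replicates 1, 2 and 3, while it took 0.0142%, 0.0172% and 0.00971% in the miR-19a/19b mimic hearts. Their 95% Wilson intervals, which cover counting error only, reached from 0.00931% to 0.0101% in the lowest heart and from 0.0181% to 0.0193% in the highest. The spread between hearts of a group was thus wider than the counting error.

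The heart with the least globin was also the heart with the lowest cardiomyocyte markers and the lowest share of mitochondrial reads. The normalized counts of Myh6, the main myosin heavy chain of adult mouse heart muscle, were 98566 there and between 175876 and 342545 in the other hearts. All 10 cardiomyocyte genes were lowest in that heart. Of the 10 macrophage genes and of the 10 neutrophil genes, 4 each were highest there. The centred mean of the macrophage list was 0.25 there against -0.33 to 0.19 elsewhere, and that of the neutrophil list was 0.44, below the 0.63 of control mimic replicate 3. The part of these differences in the globin values was not tested. Without miR-19a/19b mimic replicate 3, the log2 fold change was 0.0048 for Hba-a1, 0.05 for Hbb-bs, -0.16 for Alas2, -0.34 for Hbb-bt and -0.85 for Hba-a2. The direction of both abundant globins therefore rested on that heart, whereas Hba-a2 (adjusted p-value of limma 0.0905) and Hbb-bt (0.262) stayed lower. The log2 ratio of the mean globin sums was -0.28 with all hearts and -0.04 without it.

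**Figure D2:**
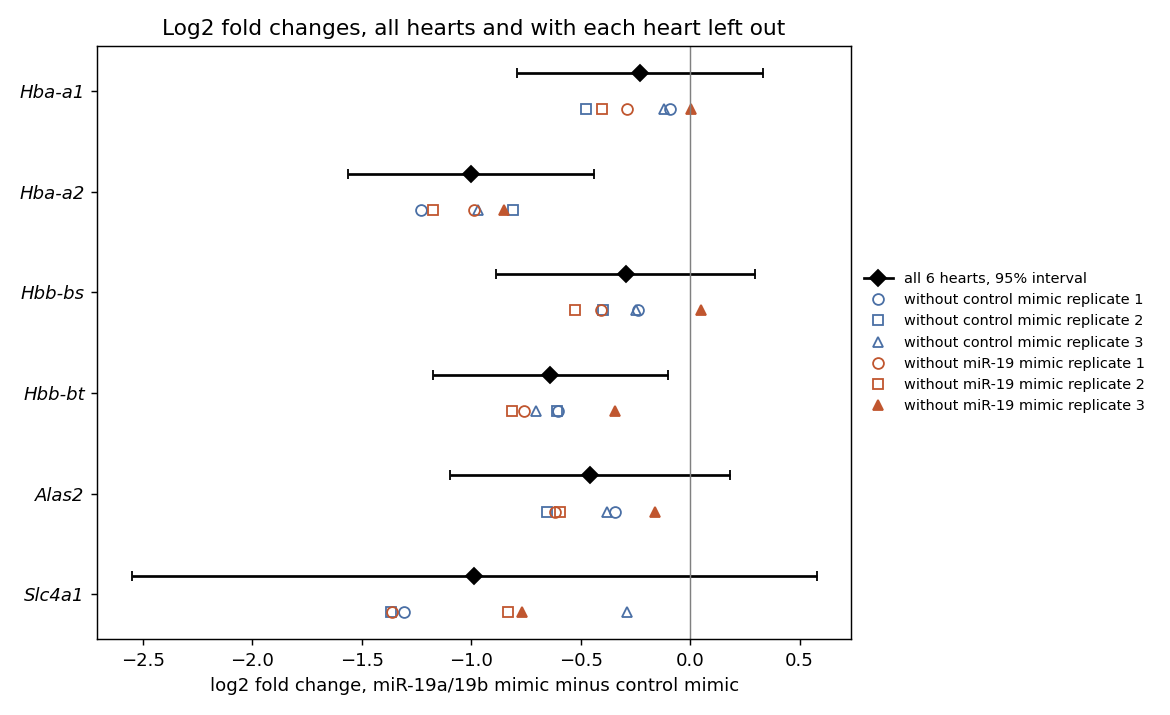
Log2 fold changes (x axis) of the 6 genes; diamonds and bars give the estimate and 95% interval from all 6 hearts, and the symbols under them the estimate with 1 heart left out. Filled triangles, without miR-19a/19b mimic replicate 3, lie at 0.0048 for Hba-a1 and 0.05 for Hbb-bs, and the intervals of Hba-a2 and Hbb-bt do not reach 0.

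Proportions within the globins compare rows of the same heart and do not rest on the scaling between hearts. The shares within a pair do rest on the split of reads between near-identical copies, which is uncertain. Hbb-bt made up 11.8%, 14.3% and 10.5% of the beta globin count in the control mimic hearts and 9.89%, 9.12% and 10.3% in the miR-19a/19b mimic hearts. The means were 12.2% ± 1.91 and 9.78% ± 0.615 (SD, n = 3 each). The groups did not overlap, though control mimic replicate 3 and miR-19a/19b mimic replicate 3 lay close together. Hba-a2 made up 6.17%, 16.7% and 8.91% of the alpha globin count in the control mimic hearts and 5.37%, 5.94% and 6.58% in the miR-19a/19b mimic hearts, and these ranges overlapped. Control mimic replicate 2 had the highest share of the minor row in both pairs.

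The ratio of alpha to beta globin counts was 0.915, 0.738 and 0.935 in the control mimic hearts and 0.809, 0.813 and 1.02 in the miR-19a/19b mimic hearts. The means, 0.863 ± 0.109 and 0.882 ± 0.123 (SD, n = 3 each), differed by less than the spread between hearts. Alas2 followed the globins closely. Per 1000 normalized counts of globin it stood at 32.0, 27.7 and 30.7 in the control mimic hearts and at 30.3, 25.0 and 26.6 in the miR-19a/19b mimic hearts. These values covered a narrower range than the globin sum, and the groups overlapped.

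**Figure D3:**
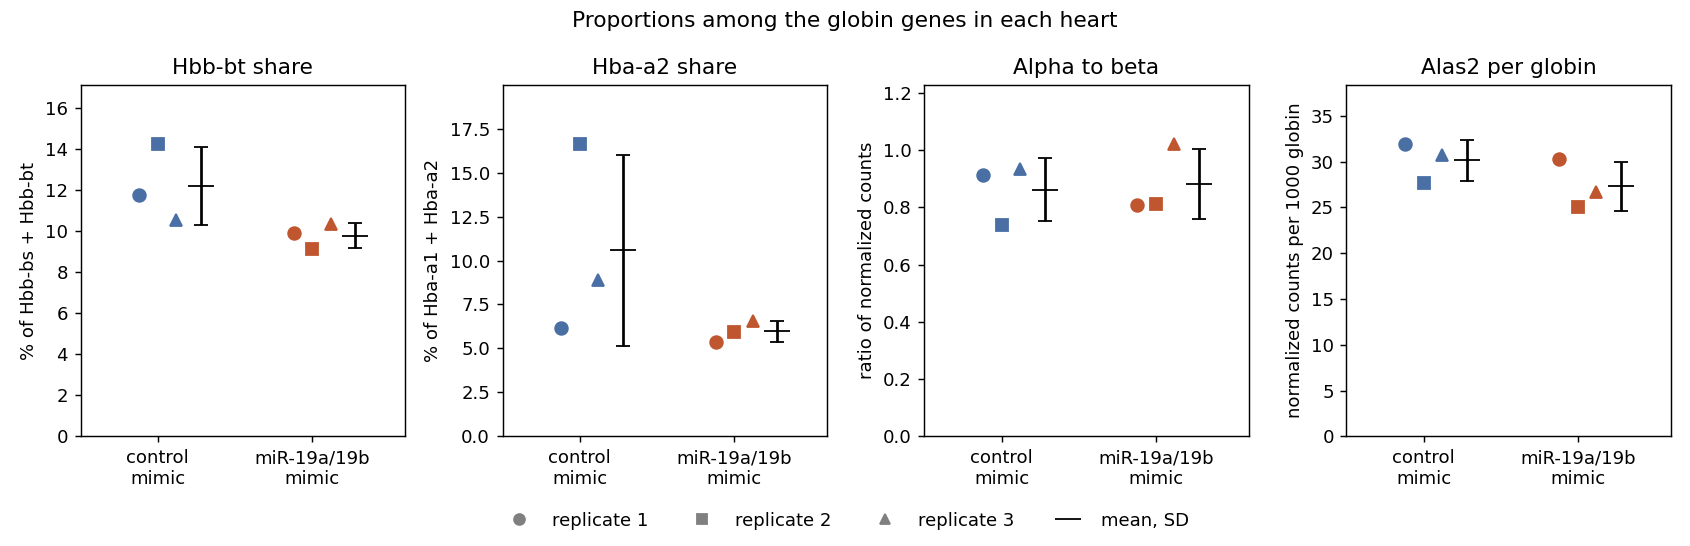
Proportions among the globin genes in each heart (y axes from 0; points are hearts, bars the mean and SD of a group): the share of Hbb-bt in the beta and of Hba-a2 in the alpha count, the ratio of alpha to beta, and Alas2 per 1000 globin counts. Only the share of Hbb-bt, 10.5% to 14.3% against 9.12% to 10.3%, does not overlap between the groups. The split of reads within a pair is uncertain.

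Levels of different genes were compared per kilobase of the gene length in the table. Over the 6 hearts, Hbb-bs had 1847 ± 456 (SD, n = 6) and Hba-a1 1748 ± 449 normalized counts per kilobase. These neighbours did not differ beyond their spread, and Hbb-bs was the higher in 3 of 6 hearts. Hbb-bt followed at 279 ± 78.0 and Hba-a2 at 186 ± 84.6 normalized counts per kilobase. Their ranges overlapped, though Hbb-bt was the higher of the pair in 6 of 6 hearts, by 1.1 to 2.16 times. The globin levels per kilobase are uncertain, as are the orders, ratios and ranks here and below that use them. How reads that match both copies of a pair were counted is not given.

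Alas2 had 40.2 ± 11.5 and Slc4a1 0.730 ± 0.876 normalized counts per kilobase, each below the gene before it in all hearts. Hbb-bs exceeded 97.2% of the genes tested on this scale and Hba-a1 97.0%, while Alas2 lay near the middle (47.3%) and Slc4a1 near the bottom (4.24%). Myoglobin (Mb), the oxygen store of heart muscle, had 41437 ± 17617 normalized counts per kilobase, between 16.8 and 31.1 times Hbb-bs in each heart. Alas1, the form of the haem synthesis enzyme found in all tissues, exceeded Alas2 in each heart, by 9.55 to 16.1 times.

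**Figure D4:**
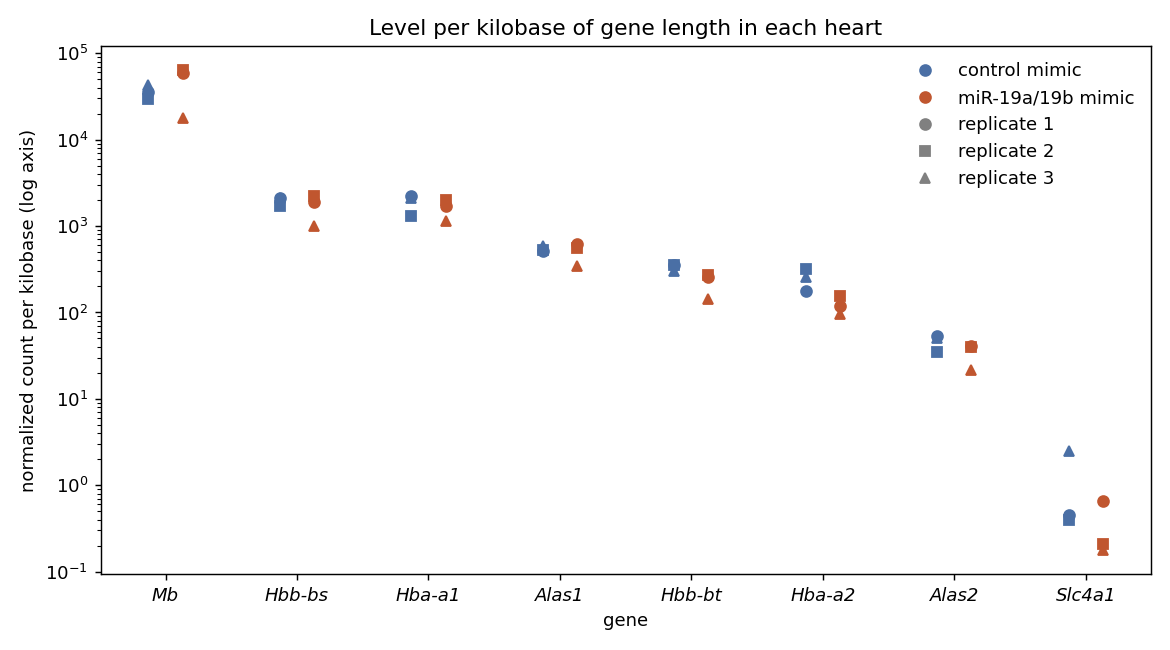
Normalized counts per kilobase of gene length (log axis) of the 6 genes, of myoglobin (Mb) and of Alas1 in each heart; colours mark the groups and symbols the replicates. Hbb-bs and Hba-a1 lie together at means of 1847 and 1748, the minor globins, Alas2 and Slc4a1 lie lower in that order, and Mb lies above them all.

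Other genes of red cells were sparse or are used by other cells too. The globins of the embryo, Hba-x, Hbb-y and Hbb-bh1, and the theta globins Hbq1a and Hbq1b had between 0 and 3 reads per heart. Genes that define red cell precursors were near 0 as well. Gata1, the main erythroid transcription factor, had 0 to 2 reads per heart, Klf1, an activator of beta globin, 1 to 5, and Epb42, protein 4.2 of the membrane skeleton, 0 to 3. Of the red cell genes listed, 9 had under 10 reads in every heart.

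The lists of haem synthesis, red cell membrane and skeleton, erythroid transcription factors, and red cell enzymes, transporters and receptors together held 53 genes, of which 45 were tested. In limma 0 of the 45 passed the test in either direction, and edgeR and DESeq2 called 0 as well. By unadjusted p-value under 0.05, 1 was lower and 0 were higher. Fitted values were lower for 26 (57.8%, against 49.2% of all genes tested) and higher for 19. The median log2 fold change was -0.02 against 0.0041 for all genes tested. The 6 members' own median was -0.55. Without miR-19a/19b mimic replicate 3, 3 of the 45 passed the test of limma, all higher, namely Rhd, Aqp1 and Isca1, and the median was 0.02. Over all 21126 genes tested, the same fit called 361 higher and 154 lower.

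The gene with the low unadjusted p-value was Ermap, an erythroid membrane protein that carries the Scianna blood group. It had normalized counts of 8.84, 20.5 and 12.1 in the control mimic hearts and of 3.23, 6.19 and 3.46 in the miR-19a/19b mimic hearts. The groups did not overlap, at 3 to 21 reads per heart, with a log2 fold change of -1.45 (SE 0.44) and an unadjusted p-value of limma of 0.00892.

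For haem synthesis, 8 genes were tested and 0 called, with a median log2 fold change of -0.05. Fech, which inserts the iron to form haem, had a log2 fold change of -0.12 (SE 0.15) and Alas1 one of -0.12 (SE 0.20). The membrane and skeleton list, with 15 genes tested and a median of -0.14 (0.07 without miR-19a/19b mimic replicate 3), was led by Sptb (beta spectrin, log2 fold change -0.0034) and Tmod1 (tropomodulin, -0.25), at over 1000 normalized counts in each heart. Both are also used in heart muscle, and both were lowest in miR-19a/19b mimic replicate 3. The transcription factors Ldb1 and Lmo2, which bridge GATA and Tal1 in erythroid cells and are also used by endothelium, had log2 fold changes of 0.12 and -0.06, with a median of 0.12 over 7 genes. Of the enzymes, transporters and receptors (15 genes, median -0.01), the most abundant were the water channel Aqp1 (0.18) and the iron-sulfur assembly factor Isca1 (0.16), whose log2 fold changes were 0.48 and 0.46 without miR-19a/19b mimic replicate 3 (adjusted p-values of limma 0.0349 and 0.0414).

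Haemoglobin and haem set free from red cells are bound, taken up and broken down by other genes. Of 18 tested genes of haemoglobin clearance and iron handling, 0 passed the test and the median log2 fold change was 0.10, or -0.03 without miR-19a/19b mimic replicate 3. In that heart, where the globins were lowest, 10 of the 18 genes were at their highest and 3 at their lowest. Cd163, the macrophage receptor that takes up haemoglobin bound to haptoglobin, had 851, 579 and 991 normalized counts in the control mimic hearts and 1445, 1238 and 971.6 in the miR-19a/19b mimic hearts. Its log2 fold change was 0.61 (SE 0.21, unadjusted p-value of limma 0.0178), and the groups overlapped. The ferritin chains Fth1 and Ftl1, which store iron, had log2 fold changes of 0.12 (SE 0.19) and 0.05 (SE 0.30).

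Genes of other blood cells were set beside the globins. Of the T cell list, 4 of 10 genes were lower at an unadjusted p-value under 0.05: Trac, Cd8a, Lck and Lat, with log2 fold changes of -0.59, -0.82, -0.64 and -0.88. Their summed level was 293 to 425 normalized counts in the control mimic and 223 to 265 in the miR-19a/19b mimic hearts, without overlap. The neutrophil list (10 genes, median -0.46) had 1 such gene, Retnlg (log2 fold change -1.52, SE 0.61), and the platelet list (14 genes, median -0.19) had 1, Gp5 (-1.19, SE 0.47). The B cell list (10 genes, median -0.17) had 0. None of these genes passed the adjusted test. Without miR-19a/19b mimic replicate 3 the neutrophil median was -0.77, and Csf3r of that list was lower with a log2 fold change of -0.71 (adjusted p-value of limma 0.0218). The summed levels of neutrophil, platelet and B cell genes overlapped between the groups, and in miR-19a/19b mimic replicate 3, where the globins were lowest, 7 of the 14 platelet genes were at their highest, among them the platelet chemokine Pf4 (4636 normalized counts against 2081 to 3110.3 elsewhere), and 2 were at their lowest.

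The cells of the heart itself gave medians of 0.14 for cardiomyocyte, -0.01 for endothelial, -0.05 for fibroblast and -0.11 for macrophage genes, with 10 genes tested and 0 called in each list. Without miR-19a/19b mimic replicate 3 the cardiomyocyte median was 0.69, and 4 of its genes were called higher by limma, Myl2 (0.91), Tnni3 (0.82), Myl3 (0.74) and Pln (0.66), while 0 were called in the other 3 lists. The most abundant genes of these lists, Myh6 (log2 fold change 0.14, SE 0.52) and Actc1 (-0.13, SE 0.40), Cdh5 (0.0047) and Pecam1 (0.02), Col1a1 (0.07) and Col3a1 (-0.12), and Lyz2 (-0.06) and C1qa (-0.11), all had overlapping groups. The same held for abundant blood cell genes, namely Csf3r (-0.33) and S100a9 (-0.40) of neutrophils, Itgb3 (0.11) of platelets, Ighm (-0.25) and Cd22 (-0.22) of B cells, and Cd4 (-0.38) of T cells. It did not hold for Lck (-0.64), which followed Cd4 in abundance in the T cell list and whose groups did not overlap. Of the other globins, Mb had a log2 fold change of 0.19 (SE 0.45), and cytoglobin (Cygb), which fibroblasts use, had one of 0.12 (SE 0.10), with 2471 to 2695 normalized counts in the control mimic and 2726 to 2962 in the miR-19a/19b mimic hearts. The Cygb groups did not overlap.

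**Figure D5:**
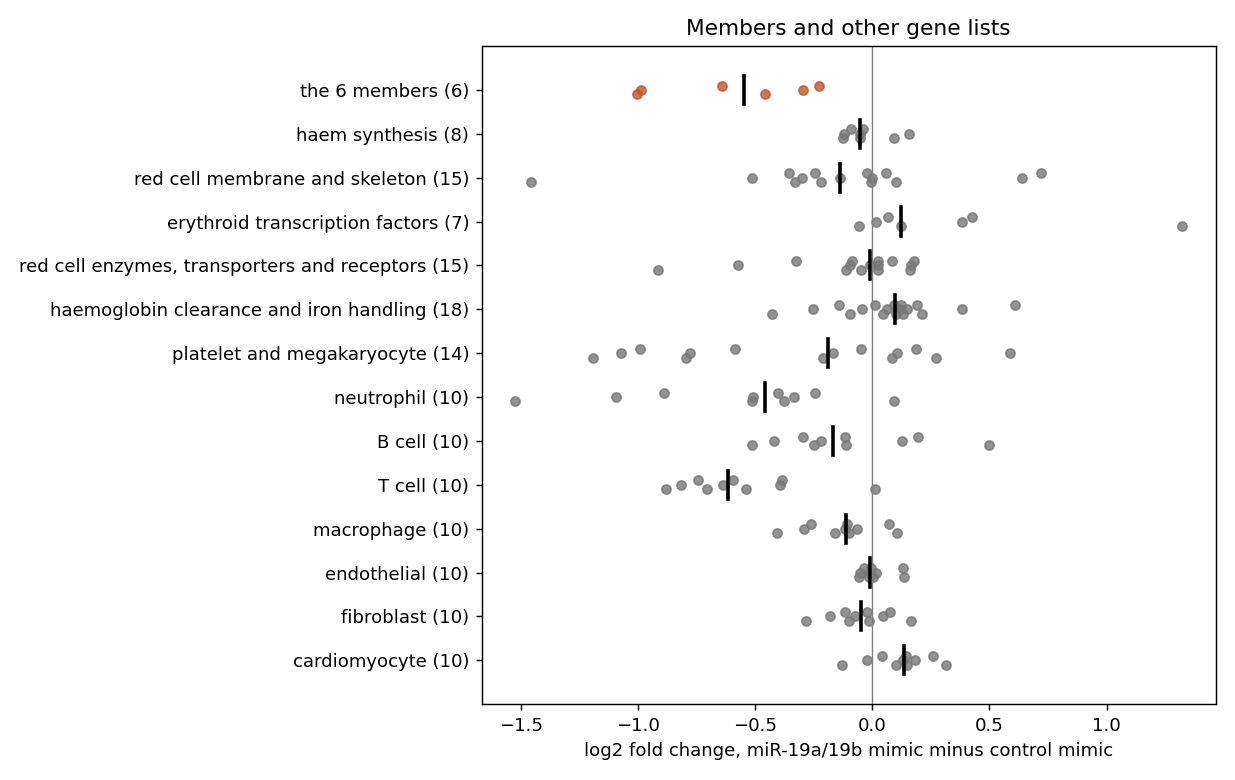
Log2 fold changes (x axis) of the 6 genes and of each tested gene of the other lists, with the number of genes in brackets; points are genes and black bars medians. The members' median is -0.55, while the medians of the red cell lists lie between -0.14 and 0.12 and those of the T cell and neutrophil lists at -0.61 and -0.46.

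The genes whose levels over the 6 hearts were most like the mean of the 4 globins were found among 15508 genes with a mean of at least 10, by Pearson correlation on the log2 scale as a description. They were Xpa (r = 0.996), a DNA repair factor, Dynlt3 (0.991), a dynein light chain, Mir99ahg (0.984), Arhgap29 (0.981), Dars (0.981), the aspartyl-tRNA synthetase, Fam98a (0.979), Gm10727 (0.977), Tox3 (0.976), Fgl2 (0.973) and Plbd1 (0.971). They share libraries and the low value of miR-19a/19b mimic replicate 3, in which each of the 10 genes was lowest. The globin mean covered 1.12 on the log2 scale, from -0.79 to 0.33 around its centre. Of the 10 genes, 9 covered less, from 0.15 for Xpa to 0.93 for Tox3, and Gm10727 covered more, at 2.06. None of the 10 genes is on the lists of red cell genes.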

How the data were processed

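RNA was sequenced from the ventricles of 6 hearts, 3 per group, after selection of polyadenylated RNA with a kit that does not mark strand. The authors aligned reads with STAR (2.5.1b) and counted them per gene with HTSeq (0.6.0). The deposited signal is a normalized count, the count divided by a size factor of the library (0.905 to 1.16). In each library 100% of values were whole multiples of 1 read within 0.01, so reads were recovered. The submitters' notes name mm9, but the coordinates of the 6 genes equal those of GENCODE M21 (GRCm38). Columns of the authors' own comparison, fold changes with p-values, were left out. Groups were compared on log2(normalized count + 1) by limma 3.58.1 in R 4.3.3, with eBayes set to trend. Recovered reads were tested with edgeR 4.0.16 and DESeq2 1.42.0 as alternatives, together with limma-voom, other scalings, filters and pseudocount, the replicate number as a block, and each heart left out in turn. With 3 hearts against 3, a permutation test of a single value could not go below 0.1, so proportions were not tested.

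The members and lists were chosen with earlier results of these data known. The genes named are the members, the 2 most abundant genes of a list and those with an unadjusted p-value under 0.05, and the 10 genes most like the globins. Genes near 0, Apex2 and the genes named for the fit without 1 heart were chosen after their values were seen. The Wilson and exact intervals cover counting error only. Intervals and SE of the log2 fold changes come from the spread between hearts in the limma fit. At the mean of 1 a gene rests on about 1 read per heart.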

Additional observations from a re-analysis of the deposited data

How the results depend on the processing

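Under each alternative, 0 of the 6 members were called, while 1 or 2 had an unadjusted p-value under 0.05. The 1 came without control mimic replicate 1 or 2, where Hbb-bt had p-values of 0.0734 and 0.0705 (limma). Over all genes, DESeq2 called 28 lower and 1 higher, and leaving out 1 heart called 0 to 154 lower and 0 to 361 higher, most when replicate 3 of miR-19a/19b mimic was left out. Of the other lists, 0 to 8 genes were then called, among them Rhd, Aqp1 and Isca1, higher by 0.97, 0.48 and 0.46 on the log2 scale (chosen after their values were seen), beside 4 cardiomyocyte genes that were higher too and Csf3r of neutrophils, with a log2 fold change of -0.71. The 8 genes of other lists with an unadjusted p-value under 0.05 became 1 without control mimic replicate 2 and 39 without miR-19a/19b mimic replicate 3. Hba-a1, between -0.47 and 0.0048 with 1 heart left out, and Hbb-bs, between -0.53 and 0.050, reversed without that heart. Slc4a1 was not tested at a minimum of 10 reads in every heart, had no adjusted p-value in DESeq2, and ranged from -1.71 to -0.99 in the other fits of all hearts. The log2 ratio of the globin sums ranged from -0.49 to -0.04 with 1 heart left out, and the difference in the alpha to beta ratio from -0.05 to 0.06. The replicate numbers did not pair the hearts (correlations of their deviations -0.0085, -0.0213 and -0.115). With them as a block, 0 members and 0 genes in all were called, and 2 members had an unadjusted p-value under 0.05. The summed globin rests on 2252 to 4228 reads per heart.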
